A study of Pan paniscus with 11 samples.

Results

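The 7 genes described here encode the chains of the fibrillar collagens of types I, II, III, V and XI: COL1A1, COL1A2, COL2A1, COL3A1, COL5A1, COL5A2 and COL11A1. They were measured in fibroblast lines of bonobos (Pan paniscus) on a human Affymetrix array. Members were found by gene symbol in the probe annotation, which lists 11 probe sets for 6 of the 7 genes, out of 12558 probe sets that are not controls. No probe set was matched to COL5A1, which was not analysed here. Of the 11 probe sets, 9 were above an intensity of 100, the floor set for all values, in at least 5 of the 11 arrays and entered the tests, with at least 1 for each of the 6 genes. The other 2, 1 each for COL1A2 and COL2A1, did not.

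The lines came from 10 normal animals, 5 female and 5 male, each grown and harvested under the laboratory's standard conditions and hybridised once. The females were 9, 2, 4, 20 and 20 years old (lines 1 to 5) and the males 4, 2, 12, 17 and 19 years old. Male line 1 was also grown in a further culture, taken at 50% confluence. Tissue of origin, passage and the density of the standard cultures are not stated in the labels. Each animal gave 1 line and each line 1 standard culture, so p-values measure the spread between lines, in which animal and culture cannot be told apart.

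Fibrillar collagens form the tension-bearing fibrils of connective tissue. Each molecule is a triple helix of chains rich in glycine, made as a procollagen, folded and hydroxylated in the endoplasmic reticulum, secreted, trimmed at both ends and cross-linked into fibrils. Type I is built from COL1A1 and COL1A2 chains and dominates skin, tendon and bone. Type III, from COL3A1 alone, shares fibrils with type I in skin and vessels. Type V, with COL5A1 and COL5A2 chains, starts type I fibrils and limits their width, and type XI, with COL11A1, does the same for the type II fibrils of cartilage, which are built from COL2A1. Cultured fibroblasts are known for strong type I and type III expression.

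Of 10 fibroblast markers on the list used, 9 were on the array, and all 9 were above the floor of 100 in all 11 cultures. Endothelial markers had a median intensity of 100, with 0 of 6 above the floor throughout. Of 9 smooth muscle and myofibroblast markers, 3 (ACTA2, TAGLN and SMTN) were above it in all 11 cultures, as were KRT10 of 6 keratinocyte, CD3E of 5 blood and SPP1 of 6 osteoblast markers. The share of probe sets above the floor ran from 52.1% to 60.9% per array. Male line 4 stood apart in control probe sets: its signal at the 3' end of ACTB was 2.27 times that at the 5' end, against 0.853 to 1.44 in the other standard lines, and the same ratio for GAPDH was 1.67, against 0.691 to 1.33. The controls for 18S rRNA were brightest in the 50% confluence culture, at 1508 to 2611, followed by male line 4 at 146 to 313, with at most 171 elsewhere. The probe sets of different genes differ in how brightly they report a transcript, so levels are compared between cultures and never between genes.

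COL1A1, the major chain of type I collagen, was bright in 8 of the standard lines and low in female line 4 and male line 4. Its leading probe set (the one of highest mean log2 intensity; its identifier ends in _s_at) read 8718, 15708, 14390, 5281 and 17516 in female lines 1 to 5. In male lines 1 to 5 it read 15489, 13812, 12419, 2122 and 13823. The 50% confluence culture of male line 1 read 16515. The value of male line 4 was 0.154 of the median of the 10 lines, 13818, and that of female line 4 was 0.382 of it, whereas the others lay between 8718 and 17516. The means were 12323 ± 5130 in females and 11533 ± 5372 in males (SD, n = 5 each), and the ranges of the sexes overlapped. The suffix _s_at marks probes that can match more than 1 transcript. The second probe set of COL1A1, ending in _at, was dim, at 100, 100, 145, 100 and 389 in the females and 150, 155, 286, 100 and 100 in the males, and was above the floor in 5 of the 10 lines. Its correlation with the first over 10 lines was 0.46, given as a description.

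COL1A2, the other type I chain, had, by its leading probe set, the smallest spread over lines of the 6 genes. It has 4 probe sets, called here by the ends of their identifiers, _g_at, _at, _s_at and _r_at. The leading one, _g_at, read 18340, 23722, 21396, 12946 and 23718 in female lines 1 to 5 and 19602, 16987, 16523, 21844 and 19059 in male lines 1 to 5, with 22766 at 50% confluence. Female line 4 was the lowest, but male line 4 was above the median, with the highest male value. The _s_at probe set gave the same picture for these lines, with 8274 in female line 4 and 17478 in male line 4 against a median of 14541. The _at probe set placed them both below its median of 7216, at 3655 and 5817. The _g_at and _s_at probe sets had a correlation of 0.89 over the 10 lines, and _at had 0.68 and 0.51 with them, as a description. The remaining one, _r_at, was above the floor in 1 array alone, at 109 in female line 5. The leading probe set read 42.1% to 86.2% of the brightest intensity on its array, _s_at 33.4% to 57.4% and _at 10.8% to 32.9%. Whether signal near the top of the scale was compressed was not tested.

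**Figure D1:**
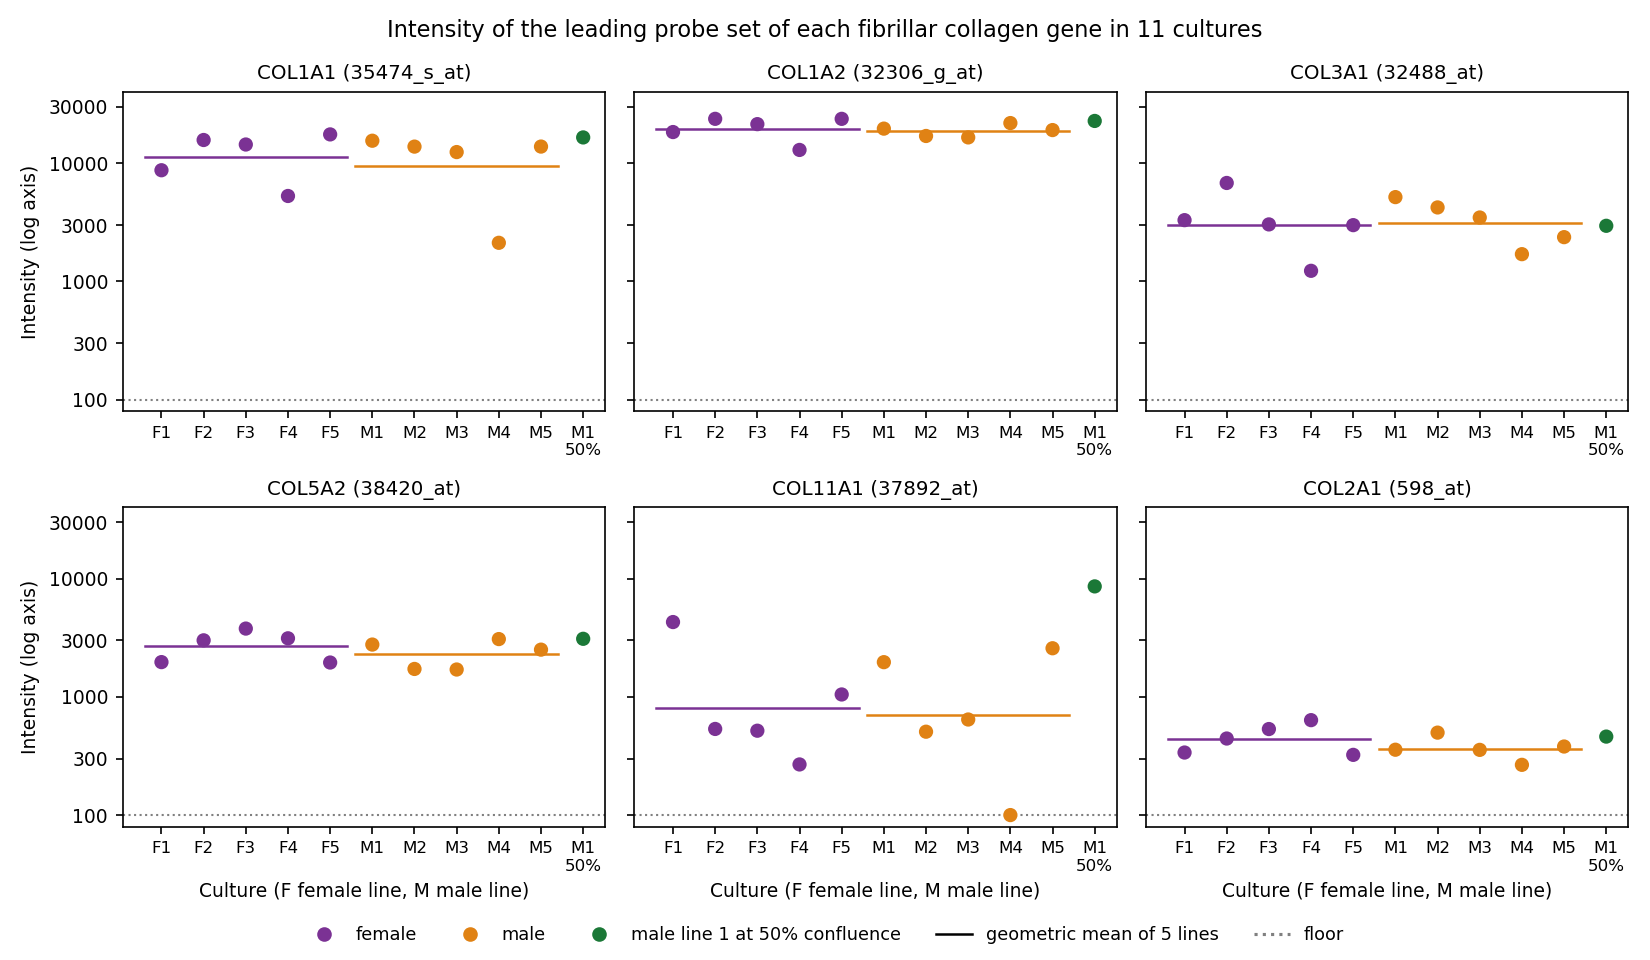
Intensity (log axis) of the leading probe set of each of the 6 measured fibrillar collagen genes in female lines F1 to F5, male lines M1 to M5 and the 50% confluence culture of male line 1; horizontal lines are the geometric means of the 5 lines of a sex and the dotted line is the floor of 100. COL1A1 is lowest in male line 4 (2122) and COL11A1 spans the floor to 4289 among standard lines, with 8588 at 50% confluence, whereas COL1A2 stays between 12946 and 23722.

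Since type I molecules are assembled from both chains, the question was whether the 2 genes varied together over lines. With all 10 lines the correlation of COL1A1 with COL1A2 was weak (r = 0.22, permutation p = 0.514, adjusted p = 0.701 over 15 gene pairs; rho = 0.60, permutation p = 0.0719, adjusted p = 0.671). It rested on male line 4: without it, r was 0.84 over 9 lines (exact permutation p = 0.00503, adjusted p = 0.0754) and rho was 0.92 (exact permutation p = 0.00131, adjusted p = 0.0197). That call by rho was lost with the other probe sets of COL1A2 and male line 4 left out, an alternative chosen after seeing the data: rho was 0.55 (exact permutation p = 0.133, adjusted p = 0.664) with _at and 0.80 (exact permutation p = 0.0138, adjusted p = 0.129) with _s_at. Without the 2 lines farthest from the COL1A1 median, female line 4 and male line 4, r was 0.60. With the _s_at probe set standing for COL1A2, r was 0.19 with male line 4 and 0.88 without it, and with _at it was 0.51 and 0.69. The adjusted p of r over the 15 pairs was above 0.05 in each of these settings.

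Set against its own median over the 10 lines, the log2 ratio of COL1A1 to COL1A2 in male line 4 was -2.85 with the leading probe set, -2.89 with _s_at and -2.22 with _at. The other 9 lines lay between -0.78 and 0.22, between -0.50 and 0.32, and between -0.56 and 0.73, in the same order. The 50% confluence culture, whose 18S control signal was the strongest, had a ratio of 0.05 with the leading probe set, inside that range. Male line 4 is also the array with the highest 3' to 5' ratios, and their part in its low COL1A1 value was not tested. Female line 4, the line with the next lowest COL1A1, had an ACTB 3' to 5' ratio of 1.04.

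**Figure D2:**
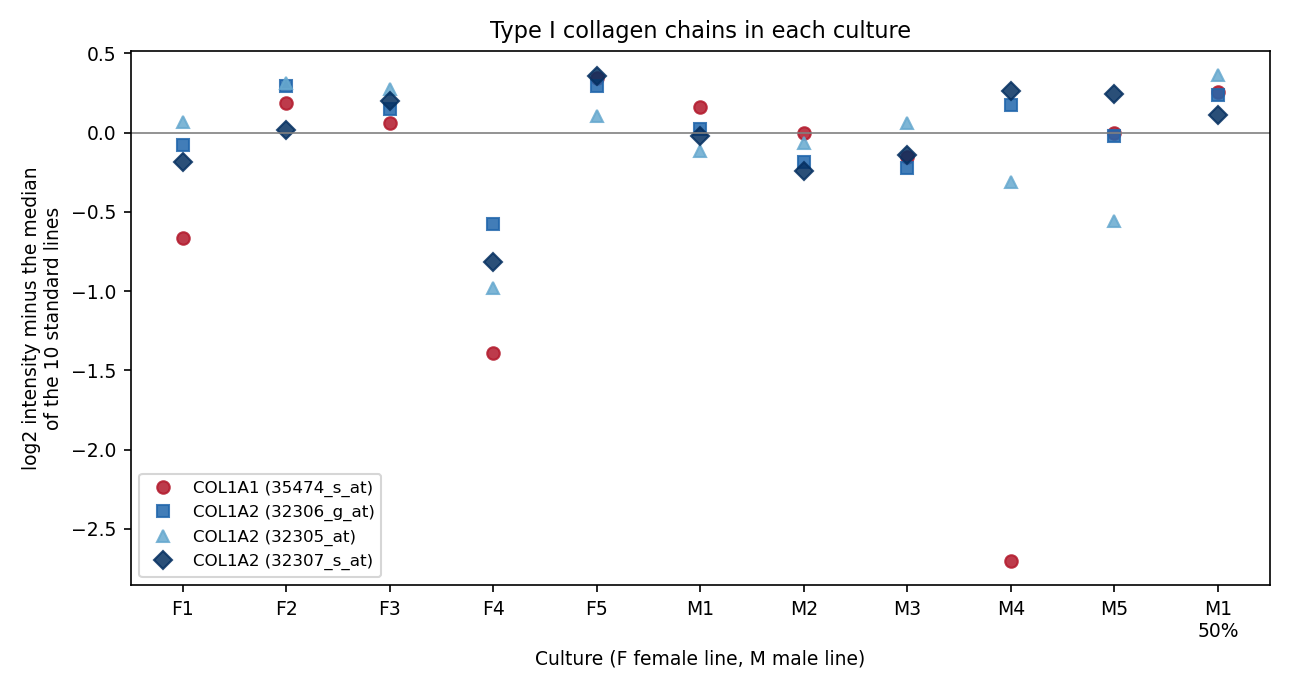
Log2 intensity minus the median of the 10 standard lines for COL1A1 and for the 3 tested probe sets of COL1A2, by culture. In male line 4 COL1A1 lies at -2.70 while the COL1A2 probe sets lie between -0.31 and 0.27; in female line 4 all 4 probe sets are below their medians.

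COL3A1, the single chain of type III collagen, was lower in the lines of the oldest animals. Its probe set read 3299, 6804, 3036, 1230 and 2993 in female lines 1 to 5, and 5167, 4225, 3473, 1701 and 2369 in male lines 1 to 5. The 4 lines from animals of 17 years or more read 1230 to 2993, all below the 6 lines from animals of 12 years or less, at 3036 to 6804. The margin was narrow, since female line 5 (2993, 20 years) and female line 3 (3036, 4 years) almost met. COL3A1 was the 1 of 9 member probe sets whose age classes did not overlap, an arrangement that 0.614% of all 7333 tested probe sets showed in either direction. The classes were drawn after the values had been seen.

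COL5A2, a chain of type V collagen, had a spread over lines near the median of all tested probe sets. Its probe set read 1966, 3005, 3777, 3125 and 1950 in the females and 2767, 1721, 1702, 3079 and 2506 in the males. Here female line 4 and male line 4 were above the median of 2637, unlike in COL1A1 and COL3A1. COL5A2 lies beside COL3A1 in the RefSeq gene table of the bonobo, with 0 protein-coding genes between them, and no correlation over lines was detected (r = -0.24, permutation p = 0.497, adjusted p = 0.701; rho = -0.36, permutation p = 0.314, adjusted p = 0.671; r = -0.35 without female lines 2 and 4).

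COL11A1, a chain of type XI collagen, was the most variable of the genes. Its probe set read 4289, 535, 517, 268 and 1047 in female lines 1 to 5 and 1964, 507, 643, 100 and 2575 in male lines 1 to 5. Female line 1, male line 5 and male line 1 were the high lines, and male line 4 was at the floor, so the span was at least 42.9-fold. Without male line 4, the array with the highest 3' to 5' ratios, it was 16.0-fold, from 268 to 4289. COL11A2, another type XI chain, had 3 probe sets in the annotation, none of which entered the tests, and its leading one was above the floor in 4 of 10 lines, at 237 in female line 2, 179 in female line 4, 369 in male line 2 and 346 in male line 4. None of these 4 was a line with high COL11A1. The chains COL5A3, COL24A1 and COL27A1 were not analysed here.

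For COL2A1, the chain of cartilage type II collagen, its 2 probe sets gave different pictures. The dimmer was at the floor in all 11 cultures. The leading one read 338, 444, 534, 635 and 323 in the females and 357, 498, 356, 266 and 380 in the males, with 461 at 50% confluence, and with overlap of the sexes. These probe sets do not settle whether the lines carried COL2A1 transcript. Of 15 chondrocyte markers, 14 were on the array, 1 of them (COL9A1) was above the floor in all 11 cultures and 5 (SOX5, MATN3, COL9A3, CNMD and CHAD) were at it in all. The intensity of SOX9, the master factor of cartilage cells, ran from 100 to 166. Others were brighter in some cultures: COL10A1, the chain of type X collagen, reached 1346 among the standard lines (male line 3) and 1864 at 50% confluence, COMP reached 1469 and ACAN, the aggrecan gene, 1077. The summed intensity of the 14 markers, in which each marker at the floor counts as 100, was 2370 to 3938 in females, 2289 to 3288 in males and 3972 at 50% confluence.

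The 6 genes had unequal spread over lines. For log2 intensity in the standard lines, the SD was 1.61 for COL11A1, 0.95 for COL1A1, 0.73 for COL3A1, 0.41 for COL5A2, 0.38 for COL2A1 and 0.27 for COL1A2, by leading probe sets. The _at and _s_at probe sets of COL1A2 had 0.40 and 0.34, so by _at COL1A2 was not below COL2A1. Over all 7333 tested probe sets the median SD was 0.43 and the 90th percentile 0.70. COL11A1, COL1A1 and COL3A1 were thus above that percentile and COL1A2 below the median. Without male line 4 the SD of COL1A1 was 0.54. COL3A1 was only just above the percentile, and its SD ran from 0.59 to 0.77 when each line was left out in turn. Differences between neighbouring SDs in this order were not tested. By line, male line 4 had the lowest value of 3 of the 6 genes, COL1A1, COL11A1 and COL2A1, and female line 4 of 2, COL1A2 and COL3A1.

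Female and male lines were compared next. By limma, 0 of the 9 member probe sets differed between the sexes at an adjusted p under 0.05, nor did any have an unadjusted p under 0.05. Over all probe sets 2 of 7333 were called, 0.0273%. The log2 difference, male minus female with age in the fit, was -0.26 ± 0.46 (SE) for COL1A1, with a 95% confidence interval from -1.23 to 0.72. For COL1A2 it was -0.07 (-0.55 to 0.42), for COL3A1 0.04 (-0.53 to 0.62), for COL5A2 -0.22 (-0.76 to 0.31) and for COL2A1 -0.27 (-0.87 to 0.32). For COL11A1 the interval ran from -1.95 to 1.53, so differences of over 2-fold in either direction lie inside it. The adjusted p was 0.99994 for each. The median over the 9 probe sets was -0.16, and that over all tested probe sets was 0.00. Without male line 4 the estimate for COL1A1 was 0.25, of the opposite sign.

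Age gave the largest estimate in COL3A1. By limma, 0 of 9 member probe sets passed for age, as did 0 of all 7333 (0%), while 2 of the 9 and 251 of all (3.42%) had an unadjusted p under 0.05. The slope of COL3A1 was -0.76 ± 0.19 (SE) log2 over 10 years, with a 95% confidence interval from -1.15 to -0.36 (unadjusted p = 0.00102, adjusted p = 0.999). Leaving out each line in turn gave slopes from -0.94 to -0.60. Over all alternatives its adjusted p was at least 0.400, the value with array weights. The estimate for COL1A1 was -0.54 ± 0.31 (-1.21 to 0.14), and -0.24 without male line 4. The 3 tested probe sets of COL1A2 disagreed, with -0.34 ± 0.15 for _at (-0.66 to -0.02, unadjusted p = 0.0404, adjusted p = 0.999), -0.07 for _g_at (-0.41 to 0.26) and 0.01 for _s_at (-0.35 to 0.37). COL5A2 stood at -0.02 (-0.39 to 0.35), COL2A1 at -0.13 and COL11A1 at -0.27 (-1.47 to 0.93). Of the 9 estimates 7 were negative, with a median of -0.13 against -0.00 over all tested probe sets.

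**Figure D3:**
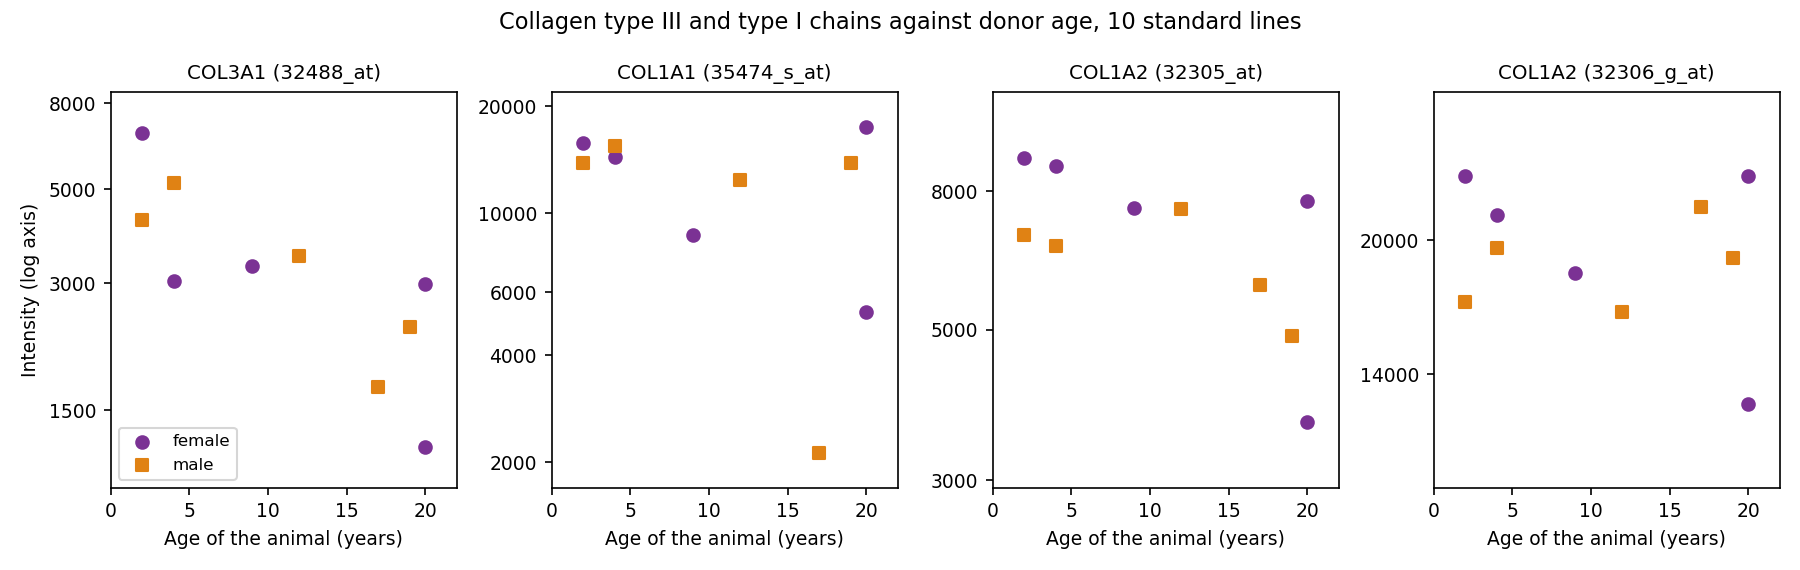
Intensity (log axis, its range set for each panel) of COL3A1, COL1A1 and 2 probe sets of COL1A2 against the age of the animal in years, 1 point per standard line, circles for females and squares for males. COL3A1 reads 1230 to 2993 in the 4 lines of 17 years or more and 3036 to 6804 in the others, while the _g_at probe set of COL1A2 reads 12946 to 23718 in the older lines and 16523 to 23722 in the younger.

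**Figure D4:**
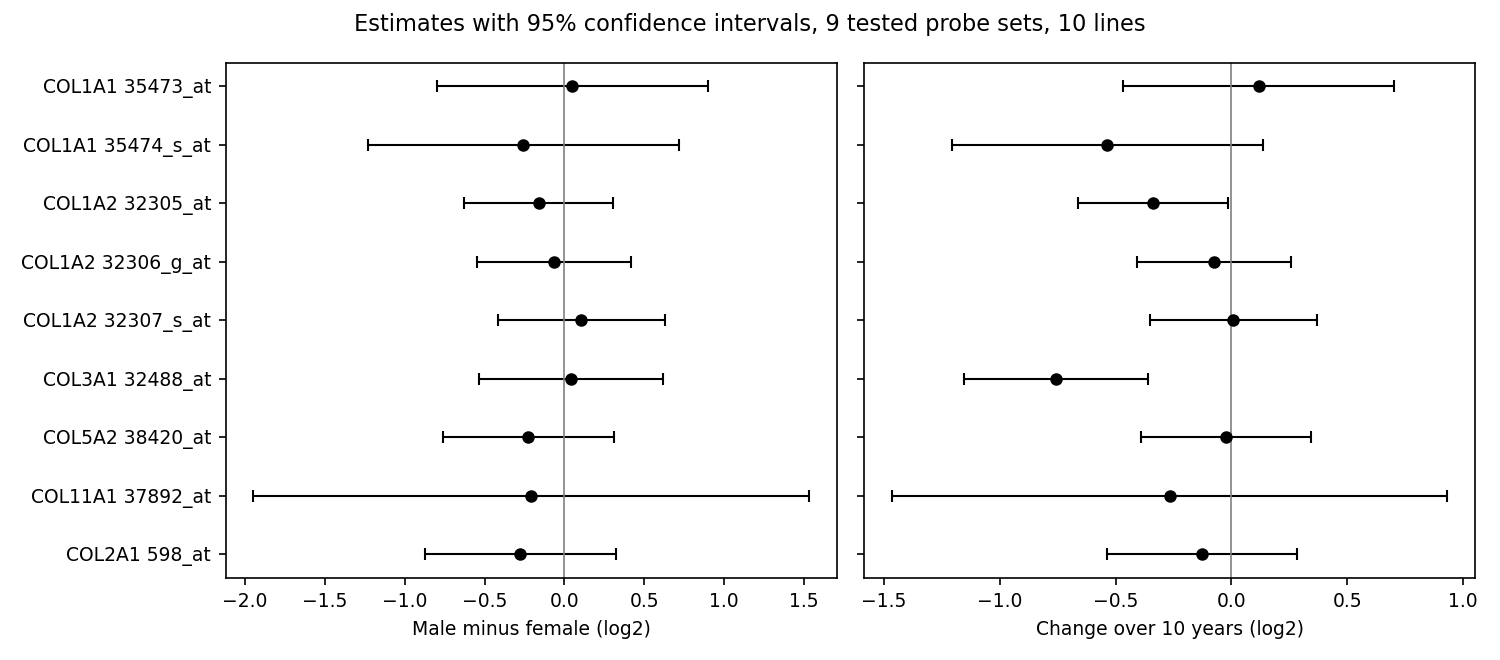
Estimates of the log2 difference male minus female (left) and of the log2 change over 10 years (right) for the 9 tested member probe sets, with 95% confidence intervals from limma over 10 lines. Intervals for sex all span 0, and those for age span 0 except for COL3A1 (-1.15 to -0.36) and the _at probe set of COL1A2 (-0.66 to -0.02), neither of which passed after adjustment.

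Whether the slope with age differed by sex was tested in a further fit. By limma, 0 of 9 member probe sets passed, against 1 of 7333 (0.0136%), and 0 of the 9 had an unadjusted p under 0.05. Male minus female slopes ran from -0.80 ± 0.53 (SE) log2 per 10 years for the dim probe set of COL1A1 to 0.43 ± 0.34 for the _s_at probe set of COL1A2. For COL3A1 the difference was 0.02, with an interval from -0.82 to 0.85. The 1 probe set called belongs to MMP1, whose collagenase cleaves types I, II and III (difference -4.53 ± 0.63, adjusted p = 0.0458). In females MMP1 was at 602 to 1356 in the lines of 9 years or less, against 12032 and 8220 in those of 20 years. In males it was at 7243 to 8128 in the lines of 12 years or less, against 382 and 778 in those of 17 and 19 years. COL3A1 read 1230 and 2993 in the same older female lines and 1701 and 2369 in the older male lines. This call was close to the threshold and depended on the setting. With quantile normalization, with median centring and in 9 of the 10 fits that left out 1 line, 0 of 7333 probe sets were called. The same held with array weights, with log2 of age and without the intensity trend of the variance. With no filter 0 of 12558 were called. With a floor of 200, with 50 added to each value, or with only probe sets above the floor in all arrays, 1 was called.

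Harvest state was described in the 2 cultures of male line 1, with 1 culture each and no test. COL11A1 was the 1 of 9 member probe sets that differed by over 2-fold, at 1964 in the standard culture and 8588 at 50% confluence, 4.37 times higher. Among the 6147 probe sets above the floor in both cultures 9.63% differed by over 2-fold, so 1 of 9 is close to the background. COL3A1 read 5167 in the standard culture and 2955 at 50% confluence, 1.75 times lower, and the remaining members differed less or were dim: COL1A1 stood at 15489 and 16515, COL1A2 at 19602 and 22766, COL5A2 at 2767 and 3095, and COL2A1 at 357 and 461. The second COL1A1 probe set read 150 and 279. In all, 8 of the 9 probe sets were higher and 1 lower, with a median log2 difference of 0.22, against 0.01 for all probe sets above the floor in both. COL1A1 and COL1A2 each enter this count more than once, and the share of all probe sets that were higher was not counted.

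The value of 8588 for COL11A1 lay above all 10 standard lines, as did the 9273 of the _at probe set of COL1A2, whose highest standard line was 8965. Such values made up 10.8% of the 6147 probe sets. Female line 1, the standard line with the highest COL11A1, also had the highest MYH11, a smooth muscle myosin gene, at 6163. Of the other smooth muscle markers, LMOD1 (823) was also highest in female line 1. MYLK and ACTG2 were at the floor there, and ACTA2 (12477), TAGLN (17482), CNN1 (415) and SMTN (1862) were below the highest standard line. MYH11 read 874 in the standard and 3997 in the 50% confluence culture of male line 1. Male line 4, the array with the highest 3' to 5' ratios, had MYH11 at 1567 with COL11A1 at the floor. Male line 5 had MYH11 at 626 with COL11A1 at 2575, and female line 3 had 680 with 517. In female line 4 and male lines 2 and 3 MYH11 was at the floor, with COL11A1 at 268, 507 and 643. Whether MYH11 and COL11A1 varied together over lines was not tested. Of 8 smooth muscle and myofibroblast markers above the floor in both cultures, 7 were higher at 50% confluence, 3 by over 2-fold, and the intensity of DES, desmin, was at the floor in every culture. The summed intensity of the 9 markers on the array was 39306 at 50% confluence, inside the ranges of 23039 to 39522 in females and 10786 to 60104 in males. Most of that sum came from ACTA2 (12389) and TAGLN (17618). Taken singly, CNN1 (1154) and LMOD1 (925) were above all 10 standard lines, whose highest values were 1033 and 823. The other markers lay inside the range of those lines. Of 5 chondrocyte markers above the floor in both cultures, 4 were higher at 50% confluence and 3 differed by over 2-fold, COL10A1 (258 against 1864, the standard culture first), COMP (190 against 382) and, in the opposite direction, ACAN (813 against 135). Over all 6147 probe sets 9.63% differed by over 2-fold, and neither marker list was tested against that share. The part of smooth muscle or cartilage cells, and of the 18S signal of this array, in the COL11A1 value was not tested.

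**Figure D5:**
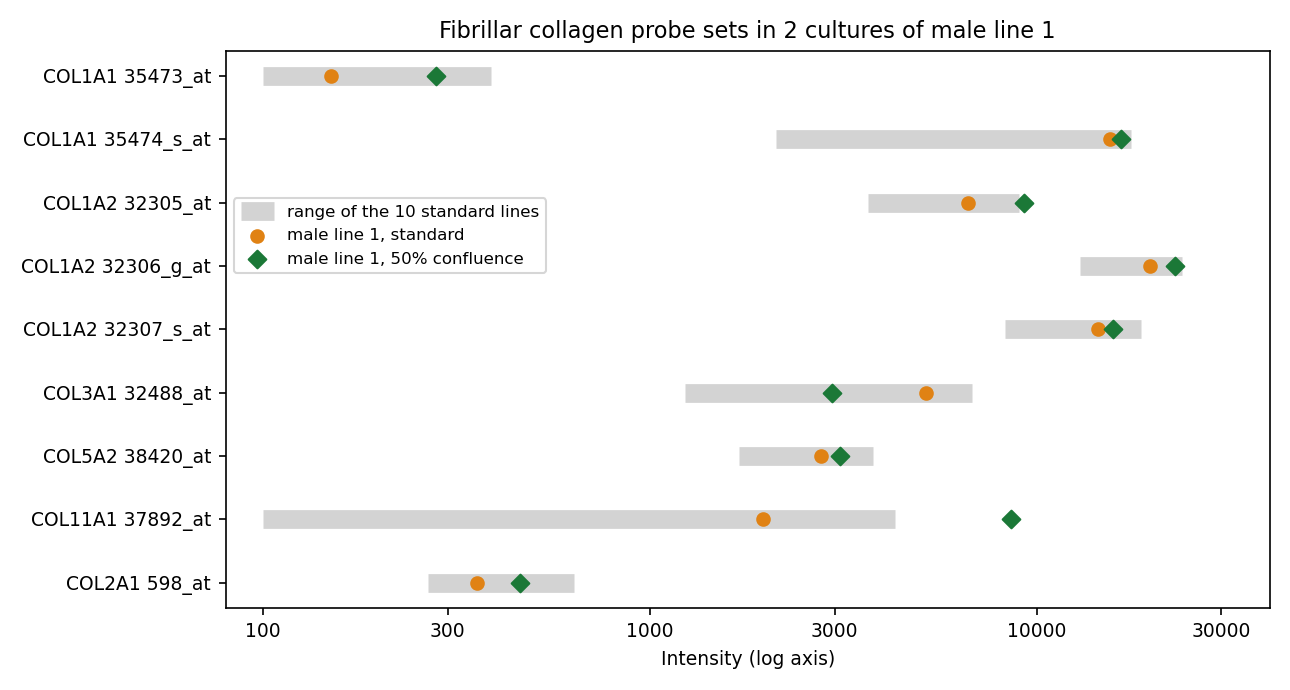
Intensity (log axis) of the 9 tested member probe sets in the standard culture (circle) and the 50% confluence culture (diamond) of male line 1, over the range of the 10 standard lines (grey bar). COL11A1 moves from 1964 to 8588, beyond the highest standard line at 4289, and COL3A1 from 5167 to 2955, inside its range.

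Over all 15 pairs of the 6 leading probe sets, 0 correlations passed after adjustment by r and 0 by rho, and 1 had an unadjusted p under 0.05. That was COL1A1 with COL3A1 (r = 0.70, permutation p = 0.0233, adjusted p = 0.349; rho = 0.52, permutation p = 0.135, adjusted p = 0.671). It rested on the 2 lowest lines, since without female line 4 and male line 4 r was 0.24. COL1A1 with COL11A1 had r = 0.62 (permutation p = 0.0613, adjusted p = 0.460) and rho = 0.39 (permutation p = 0.261, adjusted p = 0.671), and r was -0.52 without the same lines. The lowest r was that of COL1A2 with COL2A1 (-0.52, permutation p = 0.123, adjusted p = 0.615; rho = -0.36, permutation p = 0.314, adjusted p = 0.671; r = -0.30 without female lines 2 and 4). Of the 15 values 9 were positive, with a median of 0.18. Under alternatives other pairs reached an unadjusted p under 0.05. Without female line 1, COL1A1 with COL11A1 had r = 0.81 (exact permutation p = 0.00496, adjusted p = 0.0744) and rho = 0.63 (exact permutation p = 0.0760, adjusted p = 0.603). With COL1A2 by its _s_at probe set, r with COL2A1 was -0.63 (permutation p = 0.0444, adjusted p = 0.307). With COL1A2 by its _at probe set, r with COL3A1 was 0.78 (permutation p = 0.00837, adjusted p = 0.126). Without male line 4, COL11A1 with COL2A1 had r = -0.77 (exact permutation p = 0.0166, adjusted p = 0.125) and rho = -0.78 (exact permutation p = 0.0172, adjusted p = 0.129).

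The genes whose pattern over the 10 lines was most like each member were looked up among 5354 others, by Pearson's r and with no test, since they were picked for it. RHOB, a small GTPase gene, followed COL1A1 most closely (r = 0.95, rho = 0.90, and 0.92 without the 2 farthest lines), with 135 in male line 4 and up to 1627 in female line 5. EIF4EBP1, a repressor of translation initiation (r = 0.93), and the RNA helicase gene DHX38 (0.92) came next, and both were lowest in male line 4. Without the 2 farthest lines, r was 0.75 for EIF4EBP1 and 0.47 for DHX38. For COL3A1 they were the amino acid transporter genes SLC1A5 (r = 0.87, 1327 to 6339) and SLC7A5 (r = 0.87, 565 to 4498) and the growth-restraining gene BTG1 (r = 0.87). Without female lines 2 and 4, r was 0.73, 0.79 and 0.65 for these 3. In the 50% confluence culture SLC1A5 and SLC7A5 stood at -0.98 and -1.31 log2 relative to the standard culture, BTG1 at -0.20 and COL3A1 at -0.81.

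COL11A1 was most like LAMB2, a laminin chain gene (r = 0.94, rho = 0.96), the calpain subunit gene CAPNS1 (0.93) and DDOST (0.91), a subunit of the enzyme that attaches N-linked sugars. Without the 2 farthest lines, r was 0.94, 0.91 and 0.77 for these 3 genes. All 3 were highest in female line 1 and lowest in male line 4, but at 50% confluence they differed from the standard culture by 0.18, 0.10 and -0.28 log2, against 2.13 for COL11A1. COL1A2 was most like the splicing factor gene SREK1 (r = 0.92), the ATP synthase subunit gene ATP5F1C (0.90) and the proteasome subunit gene PSMA4 (0.88), each lowest in female line 4. Without the 2 farthest lines, r was 0.95, 0.94 and 0.63 in the same order, and SREK1 was near the floor, at 144 to 228. For COL5A2 the most similar were XRCC3, SMAD1 and FUT8 (0.92, 0.91 and 0.91), all near the floor at 100 to 188. For COL2A1 they were RPA2 (0.89), PTGS1 (0.89) and KRT13 (0.87), with 0.76, 0.70 and 0.91 without the 2 farthest lines.

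Other genes of collagen production were counted from 5 lists. Enzymes and chaperones of folding, trimming and cross-linking were on the array for 22 of 33 genes, and 17 were tested. By limma, 0 of 17 passed for sex, age or sex by age. For age 10 of the 17 estimates were negative, with a median of -0.04. LOX, which starts cross-linking, had -0.59 log2 over 10 years, the lysine hydroxylase gene PLOD1 0.50, and PCOLCE, an enhancer of procollagen trimming, 0.41, none of which passed. In male line 4, where COL1A1 was lowest, LOX read 1164, below the other lines at 2519 to 7841, while SERPINH1, a collagen chaperone gene, read 12598, inside the range of the others. At 50% confluence 9 of 17 were higher and 8 lower, 2 by over 2-fold: PCOLCE (3636 against 1371, the standard culture first) and P4HA2, a prolyl hydroxylase subunit gene (1234 against 2695). Among all 6147 probe sets above the floor in both cultures 9.63% differed by over 2-fold, so 2 of 17 is close to that share.

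Proteins of the fibril surface gave 12 tested genes, of which 0 passed in the 3 fits by limma. For age 6 were positive and 6 negative. The largest were POSTN, the gene of periostin, at -1.02, DPT at -0.41 and the proteoglycan gene BGN at -0.37. At 50% confluence 4 of 13 were higher and 9 lower, 3 by over 2-fold, PRELP (1.68 log2), COMP (1.01) and FBLN1 (-1.54). For this and the following lists, the share over all probe sets was 9.63%, and no list was tested against it. Of 6 tested collagen receptor genes 0 passed, and at 50% confluence 4 were higher and 2 lower, 0 by over 2-fold. Of 10 tested genes of collagen breakdown MMP1 passed, for sex by age alone. In that fit 9 of the 10 estimates were negative, with a median of -0.68 against 0.02 over all genes, among them the collagen-degrading cathepsin gene CTSK (-1.42) and the inhibitor gene TIMP3 (-1.40). At 50% confluence 4 of the 10 were higher and 6 lower, 2 by over 2-fold: MMP1 (7243 against 390, the standard culture first, -4.22 log2) and MMP14 (3682 against 1378). The density of the standard cultures is not known, and its part in the MMP1 difference between lines was not tested. Of 22 tested regulators of collagen transcription 0 passed in the 3 fits, with TGFB2 (0.53, at 100 to 339 and so near the floor) and SMAD7 (-0.36) the largest age slopes. TGFB1, the growth factor that raises collagen synthesis, read 3925 in the standard and 1166 in the 50% confluence culture, and SP3 and SMAD3 were also over 2-fold lower there, at -1.33 and -1.20 log2.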

How the data were processed

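Each array has 1 deposited intensity per probe set, linear and in whole numbers. The summary and scaling used by the authors are not stated in the labels or files. The lowest deposited value was 90 in 2 arrays, male line 5 and the 50% confluence culture, and 100 in the others. The 2 cultures of male line 1 were thus deposited with different minima. Values between 90 and 100 were raised to 100, and log2 was taken with the deposited scaling kept. The 67 control probe sets were left out, and 7333 of 12558 probe sets, above 100 in at least 5 arrays, were tested. Gene symbols came from a probe annotation of 2016. Sex and age, and sex by age, were fitted over the 10 standard lines by the moderated linear models of limma 3.58.1 (R 4.3.3; the prior variance followed intensity), two-sided, with Benjamini-Hochberg adjustment over all tested probe sets and a threshold of 0.05. The sex term was tested on simulated data with planted differences, and the age and sex by age terms were not. Correlations used 100000 permutations, or all of them for 9 lines. Arrays carry no read depth, so their number limits the precision. The probes follow human sequences, and mismatches to bonobo sequence can lower a signal. All probe sets of the members were named, with up to 4 genes of largest estimate per list and the 3 most similar genes per member; the marker genes and the values of MYH11, LOX and SERPINH1 were singled out after their values were seen. The members and lists were chosen with earlier results of these data known. Alternatives were other scalings, floors, filters, variance models and age codings, and leaving out each line. No sequence was used, and genomic position was used only for the order of COL3A1 and COL5A2 in the RefSeq gene table of the bonobo.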

Additional observations from a re-analysis of the deposited data

Results flagged for a closer look

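In 4 of 27 groups of member values (9 tested probe sets, in female lines, male lines and all 10 standard lines, on the log2 scale) a line stood farther from the rest than Dixon's 95% limit, which chance exceeds in about 1 group in 20. COL1A1 (leading probe set) read 2122 in male line 4, and the gap to the next male line was 0.889 of the range on that scale. Its second, dim probe set read 389 in female line 5, against at most 145 in the other females. COL1A2 was low in female line 4 by 2 probe sets, at 3655 for its _at probe set among the females and at 8274 for its _s_at probe set among the 10 lines. No explanation for these values was tested.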

How the results depend on the processing

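Of 522 estimates for the 9 tested probe sets under alternatives, 0 passed the threshold and 52 changed sign. The age slope of COL3A1 kept its sign in all of them. Only 11 arrays and 1 culture per line limit the precision, and intensities near 100 have no order. No paired analysis was possible because the replicate numbers only name lines in accession order and pair none of them. The cause of the changes below was not tested.

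With array weights the sex estimate was -0.0089 for COL3A1 and 0.43 for COL11A1, and the age slope 0.026 for COL11A1 and -0.0043 for the _s_at probe set of COL1A2. The last was -0.024 with quantile normalization. With age in 2 classes, chosen after seeing the data, the age estimate was -0.055 for the dim COL1A1 probe set and 0.14 for COL5A2. With a floor of 200, sex by age was 0.11 for COL11A1. For r, COL1A2 with COL5A2 was -0.13 and COL11A1 with COL2A1 0.018 with quantile normalization. With COL1A2 by its _at probe set, r with COL5A2 was -0.18, and -0.14 with male line 4 left out too. By its _s_at probe set without that line it was -0.021, and COL1A1 with COL2A1 had -0.49 without it in both cases.

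Leaving out each line in turn gave these ranges. Sex estimates ran from -0.19 to 0.46 (dim COL1A1), -0.55 to 0.25 (COL1A1), -0.23 to 0.040 (COL1A2, _g_at), -0.12 to 0.24 (COL1A2, _s_at), -0.14 to 0.25 (COL3A1) and -0.84 to 0.53 (COL11A1). Age slopes ran from -0.24 to 0.28 (dim COL1A1), -0.17 to 0.065 (COL1A2, _g_at), -0.11 to 0.20 (COL1A2, _s_at), -0.13 to 0.091 (COL5A2) and -0.75 to 0.16 (COL11A1). Sex by age ran from -1.26 to 0.27 (COL1A1), -0.10 to 0.52 (COL1A2, _at), -0.34 to 0.41 (COL3A1), -1.67 to 0.94 (COL11A1) and -0.49 to 0.070 (COL2A1). For r the ranges were -0.064 to 0.84 (COL1A1 with COL1A2), -0.49 to 0.62 (COL1A1 with COL2A1), -0.28 to 0.29 (COL1A2 with COL11A1), -0.40 to 0.51 (COL3A1 with COL2A1) and -0.77 to 0.063 (COL11A1 with COL2A1). The SD of COL1A1 over lines ran from 0.54, without male line 4, to 1.01.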
